A study of Mus musculus with 4 samples.

Results

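The 10 genes described here act in glucose uptake and glycolysis: the glucose transporter genes Slc2a1 and Slc2a3, the alpha-arrestin genes Txnip and Arrdc3, the hexokinase genes Hk1 and Hk2, and the enzyme genes Pfkl, Gapdh, Pkm and Ldha. They were listed by name and found in the GENCODE mouse gene models on build mm10 (GRCm38), 10 of 21938 protein-coding gene models. The locus of a gene was its body plus 25 kb on each side. DNase-seq sequences DNA at the places where the enzyme DNase I could cut, which are mostly in open chromatin. It had been run on primary T cells of the alpha-beta lineage, CD8-positive, naive and resting, from virgin female B6CASTF1/J mice aged 2 months. B6CASTF1/J mice are the offspring of a laboratory strain and a wild-derived strain, and the files give 1 value per site for both parental alleles together. There are 4 libraries, labelled biological replicates 1 to 4, and no second cell state or treatment, so only genes, sites and libraries of the same group were compared. The labels give a separate biosample for each library and 1 shared donor identifier, and they do not say that each came from its own animal; spreads and p-values over libraries therefore measure only the spread between these libraries.

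Glucose enters T cells mainly through the facilitative transporters GLUT1, encoded by Slc2a1, and GLUT3, encoded by Slc2a3. The alpha-arrestin TXNIP promotes the removal of GLUT1 from the cell surface, and its gene is itself a classical target of the glucose-sensing factor MondoA with its partner MLX, which bind a carbohydrate response element made of paired E-box-like motifs. Resting naive T cells rely largely on oxidative metabolism, and activation is known to raise glucose uptake and glycolysis, with induction of Slc2a1, Hk2 and Ldha. DNase-seq measures accessible chromatin, not transcripts, and in a bulk sample fewer cells with an open site and a site that is less open in each cell cannot be told apart.

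Each library had a list of peaks, of footprints (short stretches inside open chromatin that are protected from cutting) and of intervals with a raised cut rate. The deposited peak value is a height already scaled to library depth. Dividing it by the median height of the shared sites (those with a call in every library) in the same library gave the relative height, which is 1 for a median shared site. Replicate 4 stands apart in depth, with 20647 peaks and about 24.3 M tags, against 51121 to 70552 peaks and 62.9 to 109 M tags in replicates 1 to 3. Replicates 3 and 4 go against their label at Cd8a, the alpha chain gene of the CD8 coreceptor. Its promoter had 0.498, 0.366, 0 and 0 in replicates 1 to 4. The beta chain gene Cd8b1 had 1.12, 1.43, 1.03 and 0.596, and Runx3 and Patz1 of the CD8 lineage list were called in every library. Promoters of the T cell list were called at 8, 8, 7 and 4 of 8 genes in replicates 1 to 4 (summed relative heights 7.21, 6.18, 5.52 and 3.44). Those of the CD8 lineage list were called at 4, 4, 3 and 3 of 4. Those of the B cell list were called at 7, 6, 8 and 6 of 9 genes (sums 2.10, 2.62, 4.40 and 5.0). Sums were 1.19, 1.09, 1.30 and 0 for the myeloid list and 0.236, 0.171, 0.265 and 0 for the NK cell list. They were 2.47, 2.58, 2.05 and 1.42 for the erythroid and platelet list and 2.11, 2.07, 2.27 and 0.912 for the stromal and epithelial list. Weak promoter sites of the whole series were also higher in replicates 3 and 4, as given below. Of the 2 helper lineage genes, Cd4 was at 0 in every library and Zbtb7b had 0.251, 0.358, 0.746 and 1.12, and Cd79a of the B cell list had 0, 0, 0.347 and 0.684. Whether other cells contributed to these libraries was not tested.

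The promoter of Txnip was the tallest of the 10, and its sequence holds motifs known from the regulation of the gene. The 250 bases before the annotated start are shown because 125 of them lay in footprints found in all 4 libraries. Capitals mark those footprints, each merged over the libraries. The region is chr3:96557707-96557956 on the plus strand, from the RefSeq promoter table of GRCm38.p6; it overlaps an exon of the non-coding gene Gm15441 and no exon of Txnip. All sequences here are those of the reference genome, not of the wild-derived allele.

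Txnip upstream region: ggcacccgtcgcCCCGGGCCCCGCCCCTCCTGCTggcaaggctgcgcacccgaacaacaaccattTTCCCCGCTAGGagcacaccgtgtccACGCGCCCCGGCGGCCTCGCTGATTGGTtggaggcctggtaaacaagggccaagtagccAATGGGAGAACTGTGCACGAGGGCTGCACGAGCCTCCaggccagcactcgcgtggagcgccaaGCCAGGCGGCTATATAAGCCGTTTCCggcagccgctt

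Read from the start outwards, the innermost of these footprints covers a TATA box (TATANA, bases 27 to 22 before the start), and all 6 of its bases lay inside a footprint in each of the 4 libraries. The next footprint covers a tandem pair of CACGAG motifs separated by 5 bases, at bases 85 to 69 before the start, an arrangement like that of a carbohydrate response element, although the consensus of that element searched for at the start matched no footprint of the 10 genes. Of its 17 bases, 17, 17, 13 and 11 lay in footprints in replicates 1 to 4. Further out come a CCAAT motif, bound by NF-Y, with 5, 5, 5 and 1 of its 5 bases covered at bases 137 to 133, and a GC box (GGGCGG on the opposite strand), bound by SP and KLF factors, with 6, 6, 6 and 5 of its 6 bases covered. By contrast, the forkhead motif GTAAACA at bases 121 to 115, a motif bound by FOXO factors, had 0 of its 7 bases in a footprint in any library, and a second CCAAT at bases 102 to 98 had 0, 0, 3 and 0 of 5. The tandem pair was found in 1 of 32851 RefSeq promoter windows of 300 bases, that of Txnip, and in the footprints of 1 of 12925 promoter sites of the series. A TATA box between 15 and 40 bases before the start was found in 3.08% of the RefSeq windows, and among the 14 windows of the 9 genes of the list with an entry only in that of Txnip. Slc2a3 has no entry in that table. Both the tandem pair and the TATA box were searched for after the footprints had been read. The letters of the tandem pair were taken from this Txnip sequence. Its match at Txnip was therefore fixed in advance, and its counts are no test.

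**Figure D1:**
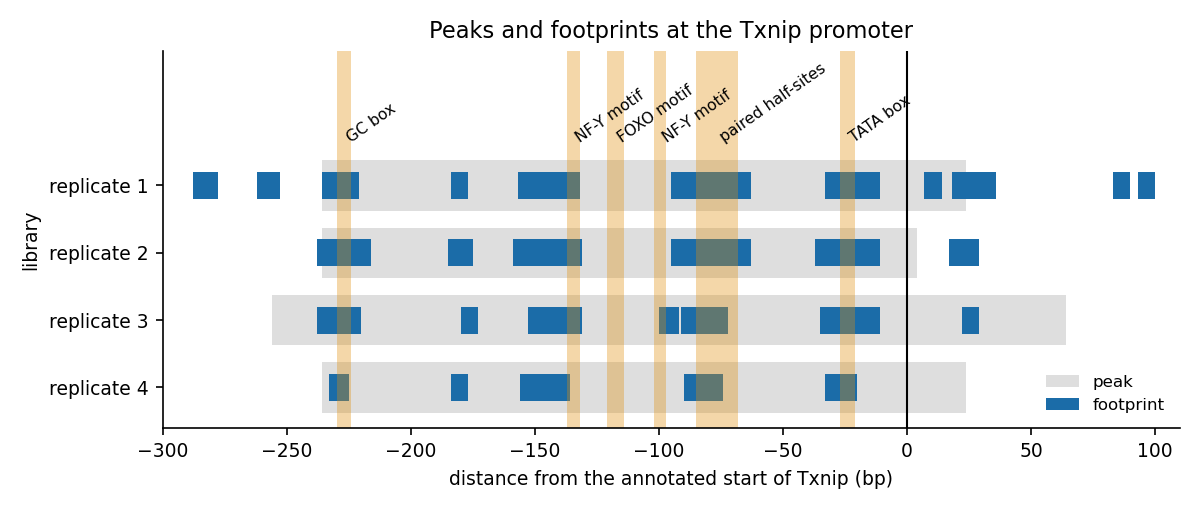
Peaks (grey) and footprints (blue) at the Txnip promoter in each of the 4 libraries, by distance from the annotated start in bp. Orange bands mark the motifs named in the text: the TATA box, the paired motifs, the outer NF-Y motif and the GC box meet a footprint in every library, and the FOXO motif meets none.

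All 10 genes had a promoter site, meaning a site within 1 kb of any annotated start, called in at least 3 of 4 libraries, against 55.1% of all protein-coding genes. Their promoter sites were also called in all 4 libraries at 10 of 10 genes, against 45.8% of all protein-coding genes. Over the 10 genes the median of the mean relative promoter height was 2.20, against 0.221 over all protein-coding genes and 1.57 over the 10058 genes called in all 4 libraries. The genes differed widely among themselves, with means between 0.353 and 3.29.

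Both alpha-arrestin promoters stood at the top of the list when sites at any annotated start were counted. At the site chr3:96557701-96558020, Txnip (chr3:96557957-96561883, plus strand) reached 3.68, 3.19, 2.75 and 3.53 in replicates 1 to 4. Its mean of 3.29 ± 0.410 (SD, n = 4) lay at percentile 94.0 of the genes called in all 4 libraries. A start of Gm15441 lies within 1 kb of this site too, so it cannot be assigned to Txnip alone. Arrdc3 (chr13:80883384-80896042, plus strand), an alpha-arrestin linked to receptor trafficking and energy expenditure, had 2.92, 3.18, 3.16 and 3.33, a mean of 3.15 ± 0.171 at percentile 92.6. The values of the 2 genes overlapped, and Txnip was higher in 3 of 4 libraries. Unlike Txnip, Arrdc3 spread its accessibility over several starts. The site at the 5′ end (chr13:80883241-80883480) had relative heights of 2.09, 2.12, 2.40 and 2.72. Downstream, a pair of adjacent sites within 1 kb of the same internal start, 2.33 and 2.73 kb from the 5′ end, averaged 2.17 ± 0.293 and 3.15 ± 0.171. These lie within 1 kb of a start of 1700023H06Rik, so they cannot be assigned to Arrdc3 alone. With the site at the 5′ end alone, the mean of Arrdc3 (2.33 ± 0.294) lay below those of Pfkl (2.57) and Gapdh (2.35).

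The 5′ end of Arrdc3 is shown as that of the other alpha-arrestin gene. Footprints of all 4 libraries took up 97 of its 250 bases and cover none of the searched motifs in full. Capitals again mark footprints of all 4 libraries, in the RefSeq window chr13:80883134-80883383 of GRCm38.p6, plus strand.

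Arrdc3 upstream region: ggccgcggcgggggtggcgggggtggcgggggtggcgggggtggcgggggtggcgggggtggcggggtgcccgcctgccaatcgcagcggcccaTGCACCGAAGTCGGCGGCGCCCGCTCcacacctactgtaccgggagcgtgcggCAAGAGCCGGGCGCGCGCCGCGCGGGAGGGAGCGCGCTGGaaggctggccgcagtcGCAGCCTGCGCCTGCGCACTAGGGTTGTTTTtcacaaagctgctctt

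The hexokinase genes, whose products trap glucose in the cell as glucose 6-phosphate, stood far apart. Hk1 (chr10:62268855-62379908, minus strand), the widely expressed form, reached 2.61, 2.41, 2.88 and 2.58 in replicates 1 to 4, a mean of 2.62 ± 0.194 at percentile 83.6. Hk2 (chr6:82725025-82774454, minus strand), the form induced when T cells are activated, had 0.240, 0.219, 0.340 and 0.614, a mean of 0.353 ± 0.182 at percentile 2.82. The promoter of Hk1 was thus 10.9, 11.0, 8.45 and 4.20 times as tall as that of Hk2 in replicates 1 to 4, a mean log2 ratio of 3.01 ± 0.65 with the same direction in 4 of 4 libraries (exact sign-flip permutation test, two-sided, p = 0.13, the smallest value that 4 libraries allow). This pair was chosen after the values had been seen. Only 2 of the 12 annotated starts of Hk1 had a site called in at least 3 libraries, and its 5′-most start had none. The tall site, chr10:62340141-62340640, lies 39.5 kb into the gene model at an internal protein-coding start and also within 1 kb of a start of the antisense gene Hk1os. DNase-seq has no strand, so these starts cannot be told apart. At Hk2, 3 of 4 starts had a site, all weak, and 0 of the 250 bases before the 5′ end lay in a footprint of all 4 libraries. The site at this end held 7, 4, 6 and 0 footprints in replicates 1 to 4. The window of Gapdh, a taller promoter, also had 0 of 250 bases in such footprints, but it lies wholly outside the called site (chr6:125165541-125165760). That site held 5 footprints called in at least 3 libraries and 1 in all 4, so the 2 windows cannot be compared.

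Among the transporters, Slc2a1 (chr4:119108711-119137983, plus strand) stood at 1.22, 1.41, 1.26 and 1.47 in replicates 1 to 4, a mean of 1.34 ± 0.120 at percentile 40.9. Slc2a3 (chr6:122727809-122801640, minus strand) had 0.433, 0.251, 0.450 and 0.579, a mean of 0.428 ± 0.135 at percentile 4.78. These are the values of the site next to its 5′-most start, which has 1 annotated transcript. Several of its 8 annotated starts lie far inside the gene model instead. The tallest site there (chr6:122742381-122742860), 59.0 kb from the 5′ end, had 0.318, 0.251, 0.361 and 0. Slc2a1 was 2.81, 5.59, 2.81 and 2.55 times as tall as Slc2a3, a mean log2 ratio of 1.70 ± 0.52 with no overlap between the genes (exact sign-flip permutation test, two-sided, p = 0.13, a pair likewise chosen after its values were seen). A second site of Slc2a1, in an intron 0.520 kb from the 5′ end, had 0.424, 0.427, 0.814 and 1.00, with replicates 3 and 4 above the other two.

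The later enzymes lay between these extremes. Pfkl (chr10:77986947-78010083, minus strand), the liver-type phosphofructokinase that commits sugar to glycolysis, had relative heights of 2.56, 3.14, 2.23 and 2.35, a mean of 2.57 ± 0.405. Gapdh (chr6:125161715-125166467, minus strand), the enzyme that oxidises glyceraldehyde 3-phosphate, had 2.42, 2.40, 2.31 and 2.26, a mean of 2.35 ± 0.0750 and the smallest spread of the 10 genes. Pkm (chr9:59656368-59679375, plus strand), which makes pyruvate, had 2.03, 2.03, 2.42 and 1.74, a mean of 2.06 ± 0.281. The lactate dehydrogenase gene Ldha (chr7:46841475-46855627, plus strand) was lower at 0.847, 1.02, 1.10 and 1.70, a mean of 1.17 ± 0.371 at percentile 33.4. Ldha resembled Hk1 in that its 5′-most annotated start had no site: the tallest site, chr7:46845701-46845920, lies 4.34 kb into the gene model, where several protein-coding starts cluster. Counting only sites at the 5′ end of each gene model left 8 of 10 genes with a promoter site, without Hk1 and Ldha. The share of all protein-coding genes under this rule was not counted.

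In the order Txnip, Arrdc3, Hk1, Pfkl, Gapdh, Pkm, Slc2a1, Ldha, Slc2a3 and Hk2, most neighbours overlapped. Of the 9 neighbouring pairs, 3 had the same order in 4 of 4 libraries: Arrdc3 above Hk1 (mean log2 ratio 0.27 ± 0.14), Pkm above Slc2a1 (0.61 ± 0.30) and Ldha above Slc2a3 (1.46 ± 0.45). Each of these had p = 0.13 and an adjusted p of 0.375 over the 9 pairs (exact sign-flip permutation test, two-sided, Benjamini-Hochberg). The other 6 pairs kept their order in 3 of 4 libraries, and no pair could pass 0.05 with 4 libraries.

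**Figure D2:**
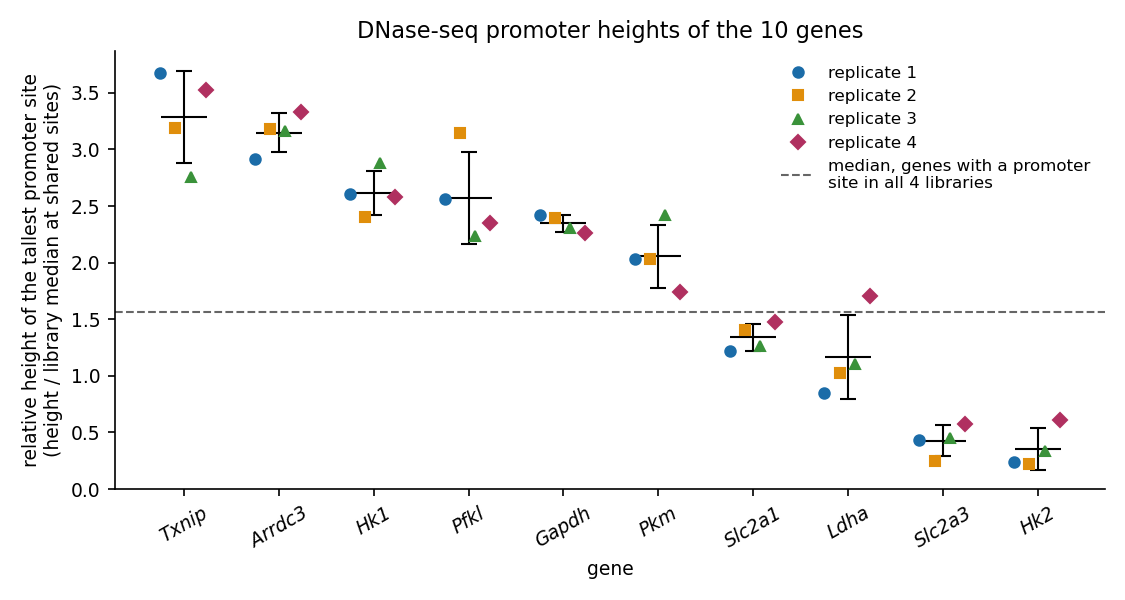
Relative height of the tallest promoter site of each gene in the 4 libraries (coloured points), with the mean (black bar) and SD (whiskers), on a linear axis that starts at 0. Txnip to Pkm lie above the dashed median of genes called in all 4 libraries (1.57), and Slc2a3 and Hk2 lie below 0.7 in every library.

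The Hk2 and Ldha promoters had their highest relative heights in replicate 4. At Hk2, the tallest promoter site called in all 4 libraries had a relative height in replicates 3 and 4 of 154% and 278% of the mean of replicates 1 and 2, and at Ldha of 118% and 182%. The promoter of Slc2a3 had 131% and 169% and the second Slc2a1 site 191% and 235%, while a weak site of Gapdh (start 125164781) had 93.6% and 115% and the Txnip promoter 80.2% and 103%. Over all 11766 promoter sites of the series called in all 4 libraries the medians were 109% and 111%. Over the 2682 of them with a mean of replicates 1 and 2 under 0.6, the medians were 133% and 175%. These sites were picked by low values in replicates 1 and 2 and by a call in replicates 3 and 4. Both choices favour high ratios at weak sites, so the ratios are no test of a difference between libraries. The sites of Hk2 and Slc2a3, the second Slc2a1 site and the weak Gapdh site belong to that weak class. Those of Ldha and Txnip do not. The genes named here were picked after their values had been seen. Without replicate 4 the order of the 10 genes by mean height put Hk2 last as before. The summed B cell promoters were higher in replicates 3 and 4, as given above, and depth differed too. Their part in the Hk2 and Ldha values was not tested.

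The 10 loci together held 111 sites called in any library, 67 in at least 3 and 31 in all 4. Of the 67, 26 were promoter sites of the genes themselves, 13 lay at a start of a neighbouring gene and 28 were distal, more than 1 kb from any annotated start. Every gene had at least 1 distal site called in at least 3 libraries, 10 of 10 against 58.3% of all protein-coding genes. The median locus held 7 sites and 3 distal sites, against 3 sites and 1 distal site over all protein-coding genes. Over the genes with a promoter site in all 4 libraries, as all 10 have, the medians were 4 sites and 1 distal site. Per 10 kb of locus the median was 0.898 sites for the 10 genes, 0.532 over those genes and 0.336 over all protein-coding genes. Median locus length was 73.1 kb for the 10 genes, against 67.4 kb over all genes. Slc2a3 had the most sites, 14, in a locus of 124 kb, and 7 of them lay at starts of other genes; Pkm had the fewest, 3. Per 10 kb of locus Txnip was denser, with 1.30 sites against 1.13 at Slc2a3, and Slc2a1 held more distal sites, 5 against 4. The sites called in exactly 3 libraries (10 at the genes' own promoters, 7 at other promoters, 19 distal) were all missing from replicate 4, the library with the fewest tags. Over the whole series, replicate 4 was likewise missing at 94.7% of promoter sites and 99.3% of distal sites called in exactly 3 libraries. The part of depth in these calls was not tested.

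The promoter of Slc2a3 was lower than several sites around it. Its distal site at -2.98 kb (upstream of the 5′ end), chr6:122804521-122804720, reached 1.24, 1.46 and 1.20 in replicates 1 to 3 and was not called in replicate 4, so that it exceeded the gene's promoter in the 3 deeper libraries. Farther upstream, sites at the starts of Gm5112 reached means of 1.65 ± 0.259 and 1.81 ± 0.411 and were called in all 4 libraries, and 4 weaker sites lay at starts of Foxj2, a forkhead factor gene. Inside the gene, an intronic site 15.2 kb from the 5′ end had 0.602, 0.817, 0.399 and 0.579. Hk2 showed the same order of promoter and distal heights. Its sites 71.5 and 60 kb from the 5′ end, beyond the 3′ end of the gene, averaged 1.23 ± 0.287 and 0.690 ± 0.179 and were called in all 4 libraries. The farther of these lies in an intron of Pole4, a DNA polymerase subunit gene.

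At the loci of Txnip, Slc2a1, Pkm and Hk1 the distal sites were lower than the gene's own promoter. Upstream of Txnip, a site at -10.4 kb (chr3:96547492-96547660) had 1.13, 1.19, 1.08 and 1.09, a mean of 1.12 ± 0.0508, and a site at -6.52 kb had 0.613, 0.790, 0.529 and 0. Slc2a1 had a distal site at -2.77 kb with 0.982, 0.960, 0.811 and 0.807, and Pkm an intronic site 3.55 kb from its start with 1.08, 1.05, 0.735 and 0. Near Hk1, the intronic site 104 kb from the 5′ end had 0.829, 0.998, 0.842 and 0.719. At the Pfkl locus the tallest site was not that of Pfkl but the promoter of 1810043G02Rik, with 3.65, 3.91, 3.49 and 3.23. The Txnip locus likewise held the promoter of Polr3gl, an RNA polymerase III subunit gene, at 1.70, 1.53, 1.66 and 1.44. A site near the 3′ end of Gapdh, with 1.14, 0.998, 1.12 and 0.754, counts as its own promoter only through 1 annotated retained-intron transcript. That transcript starts 267 bases from the site.

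As classes, promoter and distal sites of these loci overlapped. The median of the mean relative height, with uncalled sites at 0, was 0.575 over the 26 own-promoter sites and 0.397 over the 28 distal sites, a log2 difference of 0.54. Over all sites of the series called in at least 3 libraries it was 0.631 at promoters and 0.260 at distal sites. Within single libraries, over the sites called there, the log2 difference of the members' medians was -0.17, -0.42, 0.62 and 1.33 in replicates 1 to 4, so its sign differed between libraries. These values rest on unlike sets of sites. Replicate 4 counted 16 of the 26 own-promoter and 9 of the 28 distal sites, and replicates 1 to 3 counted all of them. Without replicate 4 the log2 difference was -0.0546. Over only the sites called in all 4 libraries it was 1.28, with an SD of 0.18 between libraries.

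**Figure D3:**
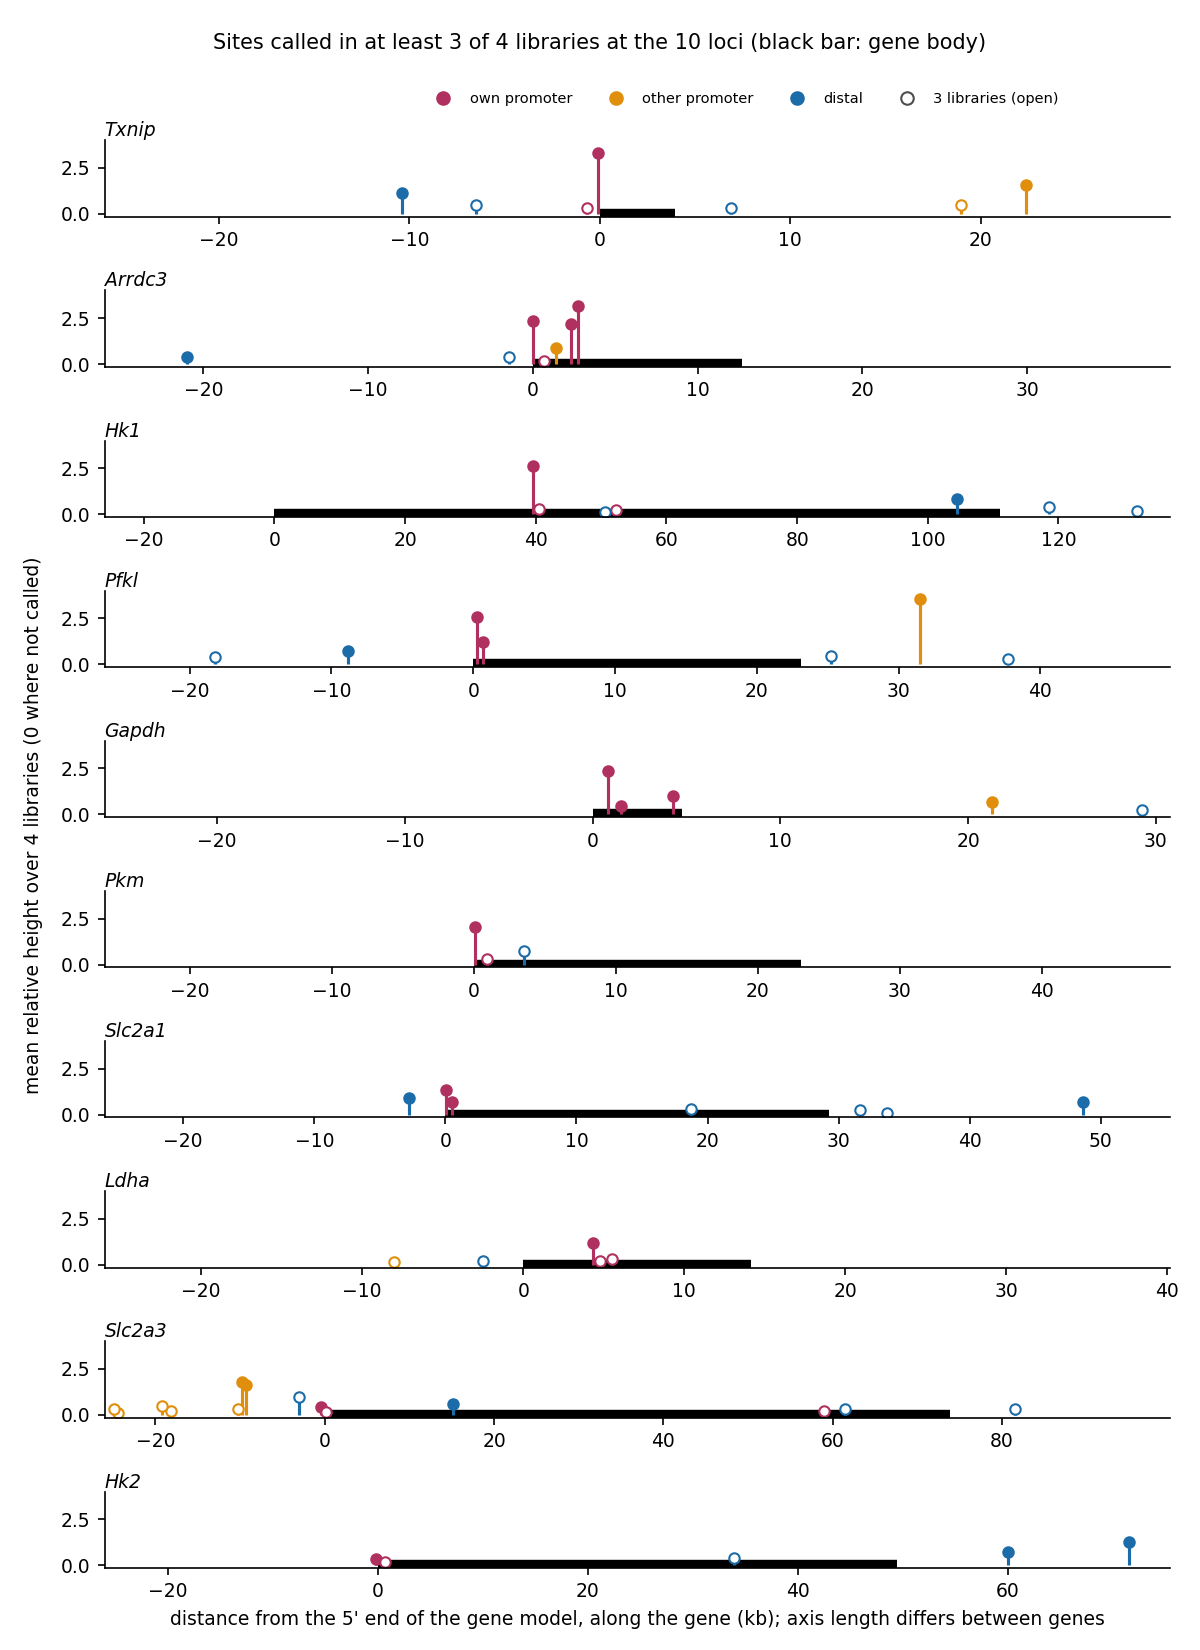
Sites called in at least 3 of 4 libraries at each locus, by distance in kb along the gene from its 5′ end (negative is upstream), with the mean relative height over 4 libraries on the vertical axis. Filled points were called in all 4 libraries and open points in 3. Txnip and Pkm show 1 dominant site at the start, Hk1 and Ldha an internal one, and Slc2a3 and Hk2 taller sites away from their own promoters.

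Footprints inside these sites numbered 219, 208, 193 and 41 in replicates 1 to 4, and 119 were called in at least 3 libraries and 33 in all 4. The alpha-arrestin genes held the most of the last kind, 7 each at the Txnip and Arrdc3 loci, followed by 5 at Pfkl and 4 at Hk1. Of these, 3 at the Pfkl locus lie at the promoter of 1810043G02Rik and 1 at the Txnip locus at that of Polr3gl. Slc2a3 had the most footprints in the 3 deeper libraries, 41, 44 and 42, but 4 in replicate 4. At Hk2 and Gapdh 1 footprint was called in all 4 libraries. The median width was 28 bases, against 26 over all footprints of the series called in at least 3 libraries. A footprint called in at least 3 libraries was found in 18 of the 26 own-promoter sites (69.2%) against 67.5% of all promoter sites, and in 24 of the 28 distal sites (85.7%) against 62.3% of all distal sites.

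Among the 15 motifs searched on both strands in the footprints with 5 bases added on each side, the GC box GGGCGG was the commonest at the genes' promoters, in 11 of 18 sites with a footprint (61.1%) against 48.5% of all such promoter sites. CCAAT was in 4 of 18 (22.2%) against 15%. The letters TATANA, searched for after the Txnip footprint had been read, were in 4 of 18 (22.2%) against 2.33%, but of the 4 genes, Txnip, Slc2a1, Gapdh and Arrdc3, only Txnip has them between 15 and 40 bases before a RefSeq start. The forkhead motif GTAAACA was in 1 of 18 (5.56%) against 0.309%, at the tall internal site of Arrdc3, in a footprint called in 3 libraries and partly in the bases added to it. The core letters of the CTCF motif, CCNNNAGNNGGC, were in 10 of 24 distal sites with a footprint (41.7%), close to the 42.5% of all 13753 such distal sites. The CREB and ATF motif TGACGTCA, in 3.62% of all promoter sites with a footprint, was found at Ldha, 12 to 5 bases before a RefSeq start. In the same Ldha window, the E-box CACGTG, bound by MYC and USF among others, lay 48 bases before the start with 0 bases in a footprint of all 4 libraries, and a further copy, 145 bases before it, lies outside the called site. A match describes letters, not a bound factor.

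A few footprints of distal sites and of the Pkm promoter are printed on the strand of the gene, with the added bases, because they carry the motif named. Capitals mark the motif: the RUNX motif TGTGGTT at Slc2a3 (chr6:122804586-122804641, minus strand) and in the Pkm intron (chr9:59659870-59659905, plus strand), the CTCF core at Hk1 (chr10:62275382-62275434, minus strand) and beyond Hk2 (chr6:82702882-82702926, minus strand), and a GC box 63 bases before the 5′ end of Pkm (chr9:59656286-59656325, plus strand). The RUNX footprints were called in 3 libraries and the others in all 4. All are read from the GRCm38.p6 genome.

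Slc2a3 upstream footprint: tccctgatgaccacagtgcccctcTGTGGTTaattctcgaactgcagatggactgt

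Pkm intron footprint: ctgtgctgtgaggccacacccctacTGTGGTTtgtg

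Hk1 intron footprint: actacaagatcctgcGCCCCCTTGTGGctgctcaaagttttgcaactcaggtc

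Hk2 downstream footprint: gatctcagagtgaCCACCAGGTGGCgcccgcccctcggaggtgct

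Pkm promoter footprint: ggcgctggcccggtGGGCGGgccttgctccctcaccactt

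The RUNX motif was found in the footprints of 2 of 24 distal sites of these loci (8.33%), those of Slc2a3 and Pkm, against 3.08% of all distal sites with a footprint. RUNX factors, which include Runx3 of the CD8 lineage, are known to bind these letters, and no factor was measured here.

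Intervals with a raised cut rate were listed separately from the peaks, from the same libraries. They covered 9.88%, 9.27%, 5.02% and 1.24% of the Txnip locus in replicates 1 to 4, and 7.83%, 7.28%, 7.03% and 3.45% of the Arrdc3 locus. The mean shares, 6.35% and 6.39%, lay at percentiles 94.5 and 94.7 of all protein-coding genes. At Slc2a3 the shares were 6.44%, 6.80%, 5.21% and 0.702%, a mean of 4.79% at percentile 87.4. The locus includes 7 sites at starts of other genes. The promoter percentile of Slc2a3 (4.78) cannot be set beside this one, because it was taken among genes called in all 4 libraries. Its mean promoter height of 0.428 lay above the median of 0.221 over all protein-coding genes. Hk1 stood lowest of the 10, with 2.71%, 2.58%, 2.51% and 0.548%, a mean of 2.09% at percentile 55.7, over a locus of 161 kb. Medians over all protein-coding genes were 2.31%, 2.09%, 1.85% and 0.549%, and the mean share of each of the 10 genes lay above the overall median of 1.75%. Of the 10 own-promoter sites not called in replicate 4, 1 held any such interval in that library, and of the 19 distal sites 2 did.

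**Figure D4:**
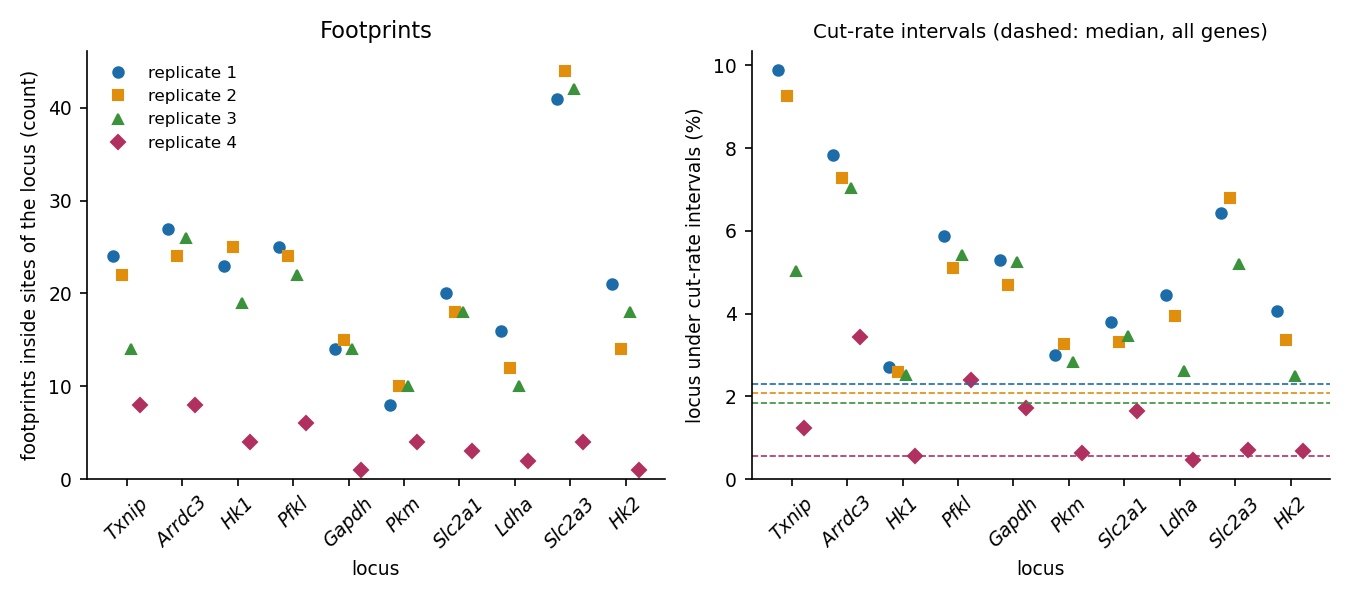
Footprints inside the sites of each locus (left, count) and share of the locus under cut-rate intervals (right, %), by library; dashed lines are the medians over all protein-coding genes in the library of the same colour. Replicate 4 is lowest at every locus in both panels, and Txnip, Arrdc3 and Slc2a3 stand highest on the right in replicates 1 and 2.

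The wider pathway gave a range in which the 10 genes can be placed. Of 70 other genes of glucose and lactate transport, glycolysis, pyruvate entry, alpha-arrestins and their regulators, 54 had a promoter site called in at least 3 libraries (55.1% of all protein-coding genes did), 48 in all 4 (against 45.8%) and 12 in none, and their median of the mean height was 0.839. Among the transporters, Slc2a1 lay below Bsg, the chaperone of lactate transporters (2.88 ± 0.453), and Slc2a4, the insulin-regulated transporter of muscle and fat (1.53 ± 0.296), while Slc2a10 and Slc2a2 were not called in any library. Hk1 was taller than Hk2, Hkdc1 and Hk3; Hkdc1 had 0.288 ± 0.0708, near Hk2, and Hk3 was not called. Pfkl had nearly the same mean as Tigar (2.58 ± 0.448), a phosphatase that lowers fructose 2,6-bisphosphate, and Pfkfb2 (2.46 ± 0.346), a kinase that makes it.

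In the lower part of glycolysis Gapdh lay between Bpgm, the bisphosphoglycerate mutase gene (2.60 ± 0.358), and Pgam1 (2.10 ± 0.229), and Eno3 and Ldhc, forms of muscle and testis, were not called. Txnip and Arrdc3 were the tallest of the 6 alpha-arrestin genes, above Arrdc2 (2.29 ± 0.172) and Arrdc1 (2.26 ± 0.186), and Arrdc5 was not called. The tallest promoters of the pathway lay outside the 10 genes, at pyruvate entry into mitochondria. Mpc2, a subunit of the mitochondrial pyruvate carrier, had 4.83 ± 0.535 and Pdhx, a component of pyruvate dehydrogenase, 4.53 ± 0.481, while Pdk4, a kinase that inhibits that enzyme, was not called. The regulators had a promoter site called in at least 3 libraries at 14 of 14 genes, against 55.1% of all protein-coding genes, with Foxo3, a forkhead factor of quiescent cells, at 2.58 ± 0.207 and Hif1a, the hypoxia factor, at 2.07 ± 0.445. No test was made over these lists.

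**Figure D5:**
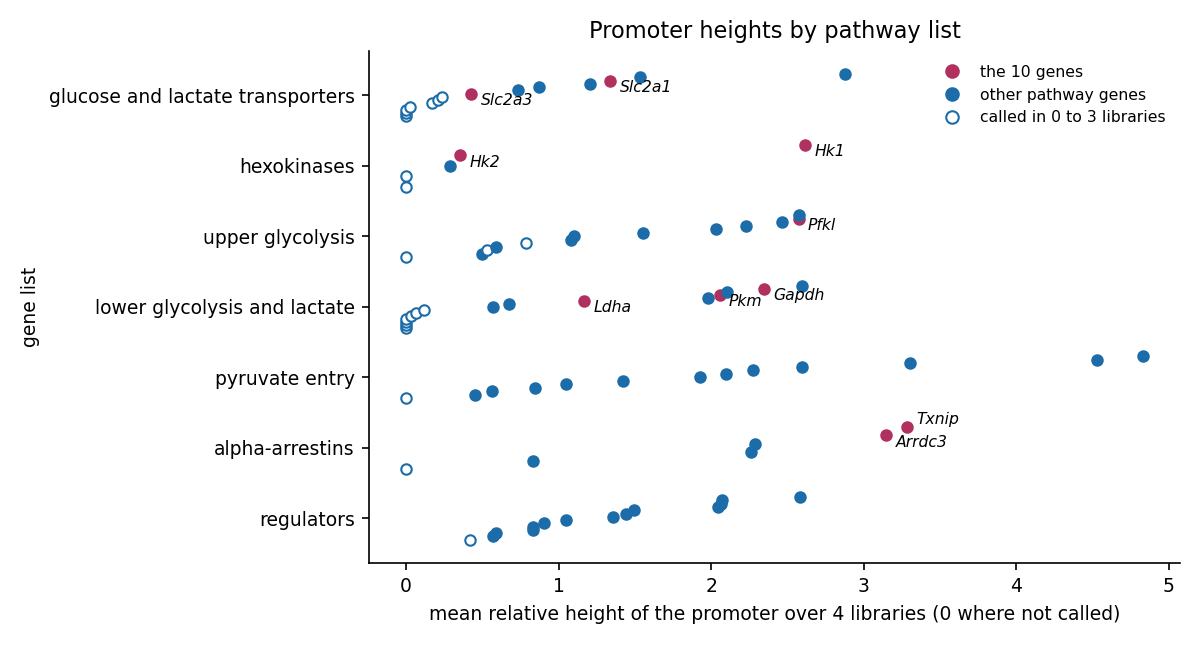
Mean relative promoter height over 4 libraries of the 10 genes (red, named) and 70 other pathway genes (blue), by list. Filled points were called in all 4 libraries and open points in 0 to 3; Txnip and Arrdc3 lie to the right of the other alpha-arrestins, and Hk1 far to the right of Hk2.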

How the data were processed

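Processed files of 4 libraries were used. Peak heights are a signal that the authors scaled to library depth, taken from the longer of 2 deposited peak lists per library. Footprints carry a deposited p-value or q-value, 0.01 in all entries, and cut-rate intervals one below 0.05; both look like false discovery rates. Genome build mm10 is given per the labels; aligner and callers: not given in the sources used here. Tags per library were read from the step between low peak heights. Without reads per site there is no counting interval.

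Peaks of the 4 libraries overlapping by at least 1 bp were merged into sites, with a height of 0 where a library had no peak. Gene models were GENCODE mouse release 21. Promoter windows and sequences came from RefSeq GRCm38.p6. The highest end of a site lay inside the reference chromosome on each chromosome, and the central 36 bases of each of the 67 sites occurred once in the genome. Genes were compared within libraries with an exact sign-flip permutation test over the 4 libraries (threshold 0.05). The members, gene lists and pairs were chosen with earlier results of these data known; the CTCF core, the tandem pair and the TATA box were added after the footprints were read. Named pathway genes were, per list, at most 2 with the tallest promoters called in every library and at most 2, alphabetically, called nowhere. Merging, promoter assignment and the test were tested on simulated data. Python 3.11.15, numpy 2.4.6, pandas 2.3.3 and matplotlib 3.10.9 were used. Alternatives were the shorter peak lists, other numbers of libraries, other promoter and locus windows, reciprocal overlap, other scalings, stricter cut-rate values and leaving out each library.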

Additional observations from a re-analysis of the deposited data

Results flagged for a closer look

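Of 32 sets of 4 library values at promoters and sites called in all 4 libraries, 1 had a value far from the other 3. The distal site at -21 kb from the 5′ end of Arrdc3 (start 80862301) stood at 0.409, 0.404, 0.289 and 0.404 in replicates 1 to 4, so that the gap of replicate 3 to its nearest value was 0.955 of the range. Chance flags about 1 in 20 such sets.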

How the results depend on the processing

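All 10 genes kept a promoter site under 11 of 12 alternatives, and 8 did when only the 5′ end of the gene model counted. Under that last rule the share of all protein-coding genes was not counted. The number of pathway genes with a promoter site (64 of 80, against 55.1% of all protein-coding genes) ranged from 56 to 66 over 11 alternatives. The 28 distal sites became 9 when all 4 libraries were needed, 15 with a 5 kb flank and 64 with a 100 kb flank. Leaving out 1 replicate kept the rule of at least 3 libraries, so every remaining library had to call a site. There were 28 distal sites without replicate 4, and 9 without replicate 1, 2 or 3, where a call in replicate 4 was required. Footprints stayed at 119 without replicate 4 and were 33, 34 and 32 without replicates 1, 2 and 3. The log2 difference between own-promoter and distal medians (0.54) changed sign for replicates 1 and 2 only (-0.0188) and for a promoter window of 2.5 kb (-0.0745). It was 1.41 under 50% reciprocal overlap and 1.28 when all 4 libraries were needed. With 1 replicate left out it ranged from -0.0546 (without replicate 4) to 1.32, and the cause was not tested. Of 90 promoter heights under alternatives 4 moved by more than the spread between libraries: Slc2a3 with the shorter lists (0.284), and Arrdc3 (2.33), Hk1 (0) and Ldha (0) at the 5′ end only. With heights as deposited Hk1 and Pfkl exchanged ranks 3 and 4; with rank percentiles the order was the same. Shares of the loci under cut-rate intervals moved by less than the spread between libraries under all 60 alternatives. No paired analysis was possible because there is 1 group, so the replicate numbers pair no samples across groups; the tests of gene against gene were made within libraries. Replicate 4, with the fewest tags, also had the fewest sites called, and the part of depth was not tested.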
